A study of Mus musculus with 12 samples.

Results

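The 10 genes described here encode heat shock proteins and other chaperones: the HSP70 genes Hspa1a, Hspa1b, Hspa8 and Hspa5, the HSP90 genes Hsp90aa1 and Hsp90ab1, the HSP40 gene Dnajb1, the HSP110 gene Hsph1, and the mitochondrial chaperonin genes Hspd1 and Hspe1. They were chosen by symbol from the 11911 genes of the deposited expression table, and all 10 were found. The libraries are bulk RNA-seq of mouse neutrophils taken from the left ventricle of the heart. About 800 live cells per library were sorted as CD45.2+Ly6G+CD64-RFP+ after enzymatic digestion of the tissue for 30 minutes at 37 degrees C. The study compared 6 libraries of genotype control with 6 of genotype LOY (loss of the Y chromosome), and asked what loss of the Y chromosome in blood cells does in the heart. Libraries are named by group and number: control 2, 6, 7, 8, 11 and 12, and LOY 3, 4, 5, 10, 14 and 15. All 12 have the treatment label control and the title term Control BMT, so that no library is a treated or an untransplanted one. The titles of the LOY libraries thus also read control, and the genotype shows in the genotype label and in the title codes, which end in C or KO. The sources used here do not give the age, sex or strain of the mice, or how the Y chromosome was lost. Nothing in the labels ties each library to its own mouse, and the spread between libraries that all p-values rest on may be technical.

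Chaperones bind unfolded or partly folded proteins and help them to fold, to be held soluble or to be handed to degradation. HSP40 proteins deliver clients to HSP70 and start its ATP cycle, HSP110 proteins exchange its nucleotide, and HSP90 takes over late folding of kinases, receptors and other signalling proteins. Under heat, oxidative stress or tissue handling the transcription factor HSF1 binds heat shock elements, alternating GAA and TTC units in promoters, and the inducible members are transcribed. Unfolded protein in the endoplasmic reticulum (ER) instead acts on Hspa5 through the ER stress response element. Inducible chaperone transcripts are also known to rise during enzymatic dissociation of tissue, together with immediate early genes.

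The promoter table from RefSeq on GRCm38.p6 matched 7 of the 10 genes, and no entry was used for Hspa8, Hsp90aa1 and Hsp90ab1. In the 250 bases before each start, both strands were searched for GAANNTTC, held by 6.69% of 32851 promoters, and for TTCNNGAA, held by 7.17%. The longer form of 3 alternating units, TTC, GAA and TTC with any 2 bases between them, holds both of these and was in 0.466% of the promoters. The ER stress response element, CCAAT and CCACG with any 9 bases between them, was in 0.113%, while its CCAAT box alone was in 33.8%. The promoters of Hspa1a and Hspa1b are shown because the 2 genes are near copies of each other and their reads are hard to separate. The stretches are the 150 bases before the start, on the minus strand at chr17:34972157-34972306 and chr17:34959239-34959388, with the GAA and TTC units in capitals.

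Hspa1a: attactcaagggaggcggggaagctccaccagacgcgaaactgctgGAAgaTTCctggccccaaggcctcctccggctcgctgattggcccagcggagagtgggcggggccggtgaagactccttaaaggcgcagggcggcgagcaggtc
Hspa1b: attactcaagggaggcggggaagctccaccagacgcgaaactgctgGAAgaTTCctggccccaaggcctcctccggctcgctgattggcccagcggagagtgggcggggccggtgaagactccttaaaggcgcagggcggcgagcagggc

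These stretches share 149 of 150 bases (99.3%), and both hold GAANNTTC from 104 to 97 bases before the start. Shorter sites of 30 bases are shown for Hsph1, Hspe1 and Hspa5, whose windows hold a heat shock or an ER stress response element. The Hsph1 site holds only TTCNNGAA, the form found in 7.17% of all promoters, so it does not place the gene in a class. The site of Hsph1 lies at chr5:149636351-149636380 on the minus strand, that of Hspe1 at chr1:55088053-55088082 on the plus strand and that of Hspa5 at chr2:34772020-34772049 on the plus strand. They precede the RefSeq starts. In the GENCODE M21 gene spans, however, the Hspa5 site lies inside Hspa5, that of Hsph1 mostly inside Hsph1, and that of Hspe1 inside Hspd1. Capitals mark the GAA and TTC units in the first pair and the ends of the ER stress response element in Hspa5.

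Hsph1: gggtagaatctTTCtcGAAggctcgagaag
Hspe1: ggtccgTTCtaGAAccTTCcgGAAggcccc
Hspa5: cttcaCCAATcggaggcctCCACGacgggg

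The Hspe1 site holds 4 alternating units, and the same element lies 144 to 127 bases before a start of Hspd1, which is transcribed the other way from the neighbouring locus. No heat shock element of these forms was found in the window of Dnajb1. A match describes letters in a window and is no evidence of binding.

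The files hold normalised reads, that is, counts divided by a size factor per library. The reads behind them ranged from 6767108 to 12561174 per library, with 9937692 ± 1846231 (SD, n = 6) in control and 8364132 ± 1408963 (SD, n = 6) in LOY. The 3 Y-linked genes in the table summed to 1032 to 1972 normalised reads in control and 0 to 59.3 in LOY, so the genotype labels hold in all 12 libraries. Neutrophil markers summed to 222333 to 613985 in control and 204015 to 388485 in LOY. Ly6g, the sort marker, was unevenly read, from 0 in LOY 3 and 0.925 in control 12 to 1039 in control 2, while Csf3r, the G-CSF receptor, was at 15795 or more everywhere. Control 8 and LOY 5 had the lowest library weight in their group in a fit that lets libraries differ in noise (0.472 and 0.659, where 1 is average), and the members' values without both are given after the single genes. No 2 libraries of the same group agreed within sampling noise.

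Per kilobase of exon, the constitutive HSP70 genes were the most abundant members. Over the 12 libraries Hspa8, the constitutive cytosolic HSP70, stood at 1405 ± 417 normalised reads per kb (SD, n = 12), and Hspa5, the HSP70 of the ER, at 1261 ± 279. They were not separated on this scale, since Hspa8 was the higher in 7 of 12 libraries. The length used was all annotated exon bases of a gene, 4301 for Hspa8 and 4229 for Hspa5. Their longest coding transcripts have 2394 and 3672 bases, and those of Hspd1 and Hspe1 2423 and 774, against 2642 and 1474 exon bases. The order of neighbours depends on that choice, and the order by transcript length was not computed. Hsp90ab1, the constitutive HSP90, followed at 708 ± 491 per kb and was below Hspa5 in 11 of 12 libraries. Dnajb1 at 407 ± 166, Hspa1b at 365 ± 279, Hsp90aa1 at 208 ± 95.6 and Hspa1a at 197 ± 129 per kb came next, and each of these neighbours kept its order in only 6 to 8 of 12 libraries. Hspd1 (107 ± 116) and Hspe1 (92.5 ± 73.1), which form the mitochondrial folding chamber and its lid, kept theirs in 7 of 12. Hsph1 was the least abundant at 20.5 ± 42.5 per kb and lay below Hspe1 in 11 of 12.

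**Figure D1:**
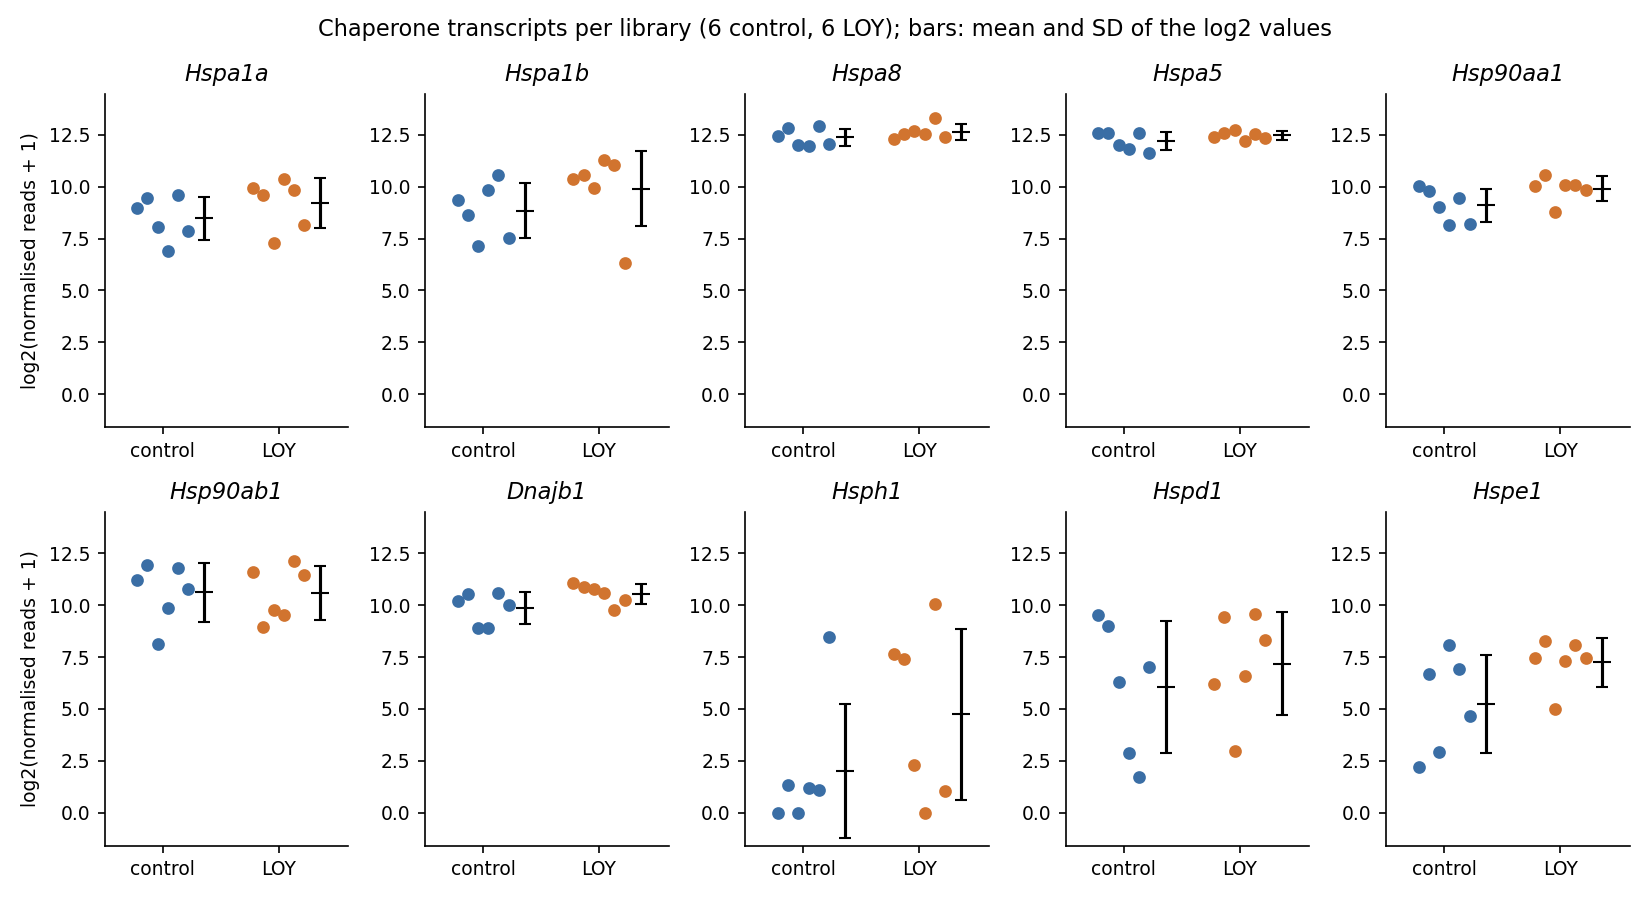
Level of each of the 10 chaperone genes in each library, as log2(normalised reads + 1) on the vertical axis, with control and LOY on the horizontal axis; points are single libraries and the bars are the mean and SD of 6. Every gene's groups overlap, Hspa8 and Hspa5 lie in a narrow band, and Hsph1, Hspd1 and Hspe1 are spread over many log2 units within each group.

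The steadiness of the members differed as much as their level. The highest library exceeded the lowest 2.16-fold for Hspa5, 2.58-fold for Hspa8, 4.62-fold for Dnajb1 and 5.24-fold for Hsp90aa1. For Hspa1a, Hsp90ab1 and Hspa1b, the same ratio was 10.9, 16.2 and 31.6, and for Hspe1 and Hspd1 it was 85.4 and 332. On the log2 scale, only 0.446% of the tested genes had a smaller SD over the 12 libraries than Hspa5, and 1.14% a smaller SD than Hspa8. Hspd1 lay nearer the middle, with 59.9% of genes having a smaller SD. These shares were taken over tested genes of all levels. Hspa8 and Hspa5 were also the most read members, so steadiness and level were not separated here.

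LOY and control were compared with limma on log2(normalised reads + 1) of the 6951 genes that reached 10 normalised reads in at least 6 libraries, which is 58.4% of the listed genes. Of the 10 members, 9 passed that filter and Hsph1 did not. No member was called at an adjusted p of 0.05, against 0.0288% of tested genes (2 of 6951). None had an unadjusted p under 0.05 either, where 4.37% of tested genes did (304 of 6951). DESeq2 on the recovered reads called none of 10 members, with 3.12% of 9723 genes called, and edgeR none of 9, with 0% of 7054 called. In both tools no member had an unadjusted p under 0.05. The groups' ranges overlapped for all 10 members, and did not overlap for 0.201% of tested genes (14 of 6951).

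Of the 9 tested members, 8 had a log2 fold change above 0, where 50.4% of all tested genes did. The median over the 9 was 0.72 on the log2 scale, beside 0.0081 over all tested genes. All 9 come from the same 12 libraries, so these are not 9 separate observations. Summed over all 10, the chaperones took 0.117% to 0.312% of the listed reads in control libraries and 0.185% to 0.376% in LOY. The total was 10145, 14910 and 22279 normalised reads (lowest, median, highest) in control and 16448, 18814 and 27946 in LOY. The ranges overlap: 3 control libraries lay below the lowest LOY library and 1 LOY library above the highest control.

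**Figure D2:**
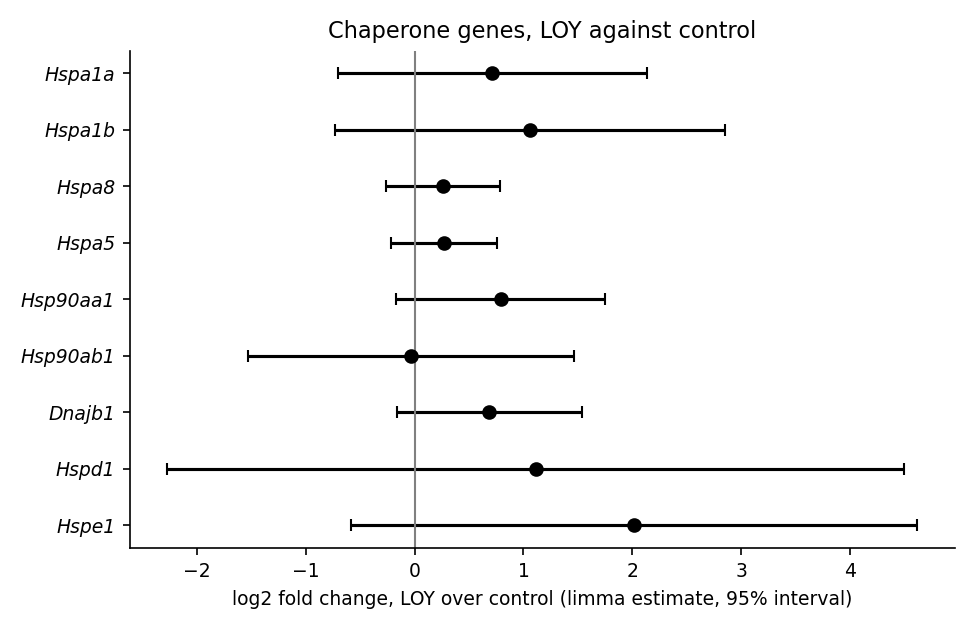
Log2 fold change of LOY over control for the 9 tested chaperone genes (horizontal axis, limma on log2(normalised reads + 1)); points are estimates and lines their 95% intervals over 6 and 6 libraries. Every interval includes 0, the shortest are those of Hspa5 and Hspa8, and those of Hspd1 and Hspe1 span more than 4 log2 units.

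Hspa1a and Hspa1b, on chromosome 17 at 34969190-34972156 and 34956436-34959238, are the stress-inducible HSP70 genes, each made of 1 exon. Hspa1a stood at 120, 389 and 772 normalised reads in control (lowest, median, highest) and at 153, 847 and 1312 in LOY. LOY 10, 3 and 14 lay above every control library, while LOY 5 and LOY 15 sat among the lower controls. The log2 fold change was 0.72 (SE 0.66, 95% interval -0.70 to 2.13, limma adjusted p = 0.997). Single omissions moved it from 0.40 without control 8 to 1.10 without LOY 5.

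Hspa1b stood at 139, 534 and 1525 normalised reads in control and at 78.3, 1414 and 2473 in LOY. LOY 10 and LOY 14 were the highest 2 libraries, and LOY 15 the lowest of all 12. LOY over control gave a log2 fold change of 1.06 (SE 0.84, 95% interval -0.73 to 2.85, limma adjusted p = 0.997). Without LOY 15 it was 1.78 by limma (unadjusted p = 0.0115, adjusted p = 0.945). The annotated transcripts of the pair share much of their sequence: 58.8% of the 50-base stretches of Hspa1a recur in Hspa1b, and 62.3% of those of Hspa1b in Hspa1a. The split of reads between them is therefore uncertain, and Hspa1a also overlaps exons of Gm20481 on the opposite strand over 564 bases in a protocol that does not mark strand.

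The sum of the pair is less open to that uncertainty. It was 408, 1071 and 2298 normalised reads in control and 365, 2286 and 3785 in LOY, with means of 1072 ± 692 and 2145 ± 1239 (SD, n = 6 each), a ratio of 2.00. LOY 10 and LOY 14 lay above every control library, and LOY 15 below every one. The difference of mean log2 values was 0.93, with p = 0.197 in a two-sided exact permutation test over the 924 ways to divide the libraries, whose smallest possible p is 0.00216. Without LOY 15, the lowest library for this sum, the difference was 1.37 with an exact permutation p of 0.0238, not adjusted for the choice among omissions. Leaving out the lowest LOY library can only raise the difference. Over the other single omissions the difference was 0.70 to 1.20 with exact permutation p from 0.115 to 0.361.

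Summed markers of other cells were also at an extreme in some of these libraries. LOY 10, the highest library for both inducible genes, also had the highest summed cardiomyocyte markers, 76379 normalised reads against 5144 to 9071 in control. Without LOY 10 the log2 fold change was 0.48 for Hspa1a and 0.79 for Hspa1b. It was lower still without control 8 for Hspa1a (0.40) and without control 7 for Hspa1b (0.72). LOY 15, the lowest for the Hspa1 sum, had the highest summed macrophage markers, 83433 against 32976 to 55961 in control. Its cardiomyocyte markers, 17068, were above every control as well, and its endothelial markers, 6477, were the highest of the 12 libraries. The part of these markers in the result was not tested. In these bulk libraries, fewer cells of a type and less RNA per cell cannot be told apart.

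The ratio of Hspa1b to Hspa1a showed a further split of libraries that the genotype does not follow. It was 7.65 in control 8 and 6.42 in LOY 5, the library of lowest weight in each group. In the other 10 it ran from 0.273 in LOY 15 to 2.25 in LOY 14. LOY 15 had the next lowest weight, 0.750. The medians were 1.05 in control and 1.94 in LOY, with overlapping ranges.

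**Figure D3:**
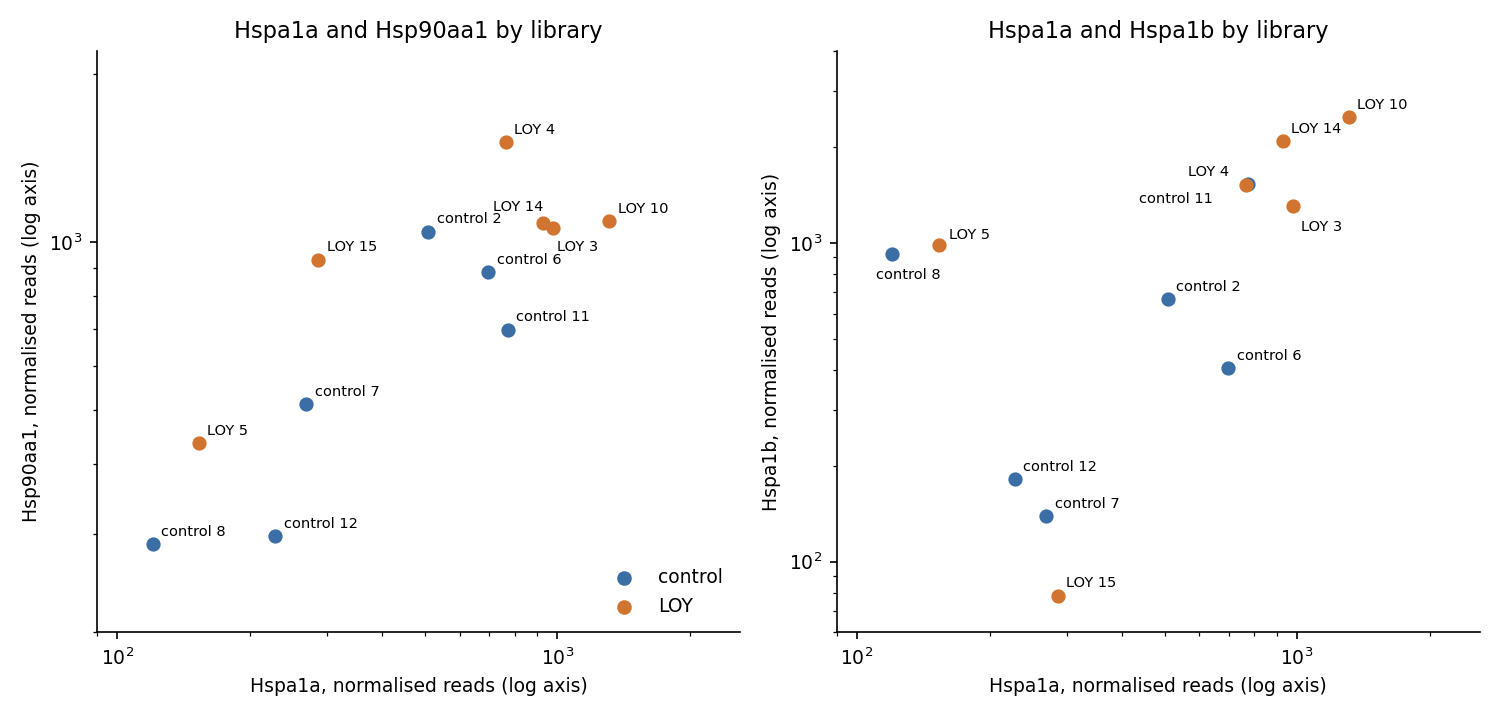
Normalised reads of Hspa1a (horizontal, log axis) against Hsp90aa1 (left) and Hspa1b (right) in the 12 libraries, coloured by group. Hspa1a and Hsp90aa1 rise together over both groups, and control 8 and LOY 5 stand off the line of Hspa1a and Hspa1b with more Hspa1b for their Hspa1a.

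Hspa8, on chromosome 9 at 40800984-40810087, encodes the constitutive HSP70 that serves folding and clathrin uncoating in unstressed cells. It stood at 3989, 4932 and 7851 normalised reads in control and at 5016, 6012 and 10285 in LOY. LOY 14 alone exceeded the controls, and control 7, 8 and 12 lay below every LOY library. Between the groups, the log2 fold change was 0.26 (SE 0.24, 95% interval -0.26 to 0.78, limma adjusted p = 0.997), and without LOY 14 it was 0.12. Of its 50-base stretches, 74.8% recur in other annotated genes, mostly processed copies.

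Hspa5, on chromosome 2 at 34771970-34777547, encodes BiP, the HSP70 of the ER that also holds the stress sensors of that compartment inactive. It shares no 50-base stretch with another gene. It stood at 3185, 5141 and 6242 normalised reads in control and at 4689, 5720 and 6868 in LOY. Control 7, 8 and 12 again lay below every LOY library, and 2 LOY libraries above every control. The log2 fold change was 0.27 (SE 0.23, 95% interval -0.22 to 0.75, limma adjusted p = 0.997). The upper ends of the 95% intervals for Hspa8 and Hspa5 lie under 1, a doubling on this scale, and those of the other 7 tested members do not. The intervals rest on the spread between these bulk libraries and set no bound on the level per cell.

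Hsp90aa1, on chromosome 12 at 110690605-110702728, encodes the stress-inducible cytosolic HSP90. It stood at 288, 604 and 1043 normalised reads in control and at 436, 1071 and 1508 in LOY. LOY 3, 4, 10 and 14 lay above every control library, and LOY 5 below 4 of the 6. The 95% interval of the log2 fold change was -0.17 to 1.75 around 0.79 (limma adjusted p = 0.997), and the two-sided exact permutation p was 0.0758. Hsp90aa1 had the smallest unadjusted limma p of the members (0.0981) and was the only single member given an exact test. That exact p is not adjusted over the members. Without LOY 5, limma gave Hsp90aa1 an unadjusted p of 0.0345 and an adjusted p of 0.997. Since 58.5% of its 50-base stretches recur elsewhere, the reads of Gm12346 and Gm5844, the copies in the table that share most with it, were added. The difference was then 0.80 with the same exact permutation p of 0.0758.

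Hsp90ab1, on chromosome 17 at 45567775-45573271, encodes the constitutive cytosolic HSP90 and is mostly unique in sequence, with 4.49% of its stretches shared. It stood at 282, 2067 and 3902 normalised reads in control and at 499, 1846 and 4566 in LOY. High and low libraries occurred in both groups, and the log2 fold change was -0.03 (SE 0.70, 95% interval -1.53 to 1.47, limma adjusted p = 1.000). Its sign has no meaning here, since it was 0.03 after quantile normalization and -0.53 to 0.29 with single libraries left out. The ratio of Hsp90ab1 to Hsp90aa1 ran from 0.331 in LOY 4 to 6.02 in control 12, with medians of 3.81 in control and 2.497 in LOY.

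Dnajb1, on chromosome 8 at 83608193-83612653, encodes the main stress-inducible HSP40 partner of HSP70. It stood at 474, 1112 and 1547 normalised reads in control and at 861, 1640 and 2191 in LOY. LOY 3, 4 and 5 lay above every control library, and control 7 and 8 below every LOY library. For Dnajb1 the log2 fold change was 0.69 (SE 0.39, 95% interval -0.16 to 1.53, limma adjusted p = 0.997). LOY 5, low for Hspa1a and Hsp90aa1, was among the highest for Dnajb1.

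Hsph1, on chromosome 5 at 149614287-149636376, encodes HSP110, the nucleotide exchange factor of HSP70. It was read in few libraries: 355 normalised reads in control 12, and 198, 166 and 1060 in LOY 3, 4 and 14. The other 8 libraries held 4 reads or fewer. Control 2, control 7 and LOY 10 held none, where a count of 0 allows up to 2.18, 2.49 and 2.12 normalised reads (3 reads, counting error only). The medians were 1.20 in control and 85.2 in LOY, the groups overlap, and the gene did not reach the filter. Without the filter its log2 fold change was 2.72 (SE 1.98, limma adjusted p = 0.916). Hsph1 shares no stretch with another gene.

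Hspd1 and Hspe1 encode HSP60 and HSP10 and lie head to head on chromosome 1, at 55077835-55088243 and 55088132-55091307, with 112 bases of exon in common on opposite strands. Of their 50-base stretches, 44.8% recur in other annotated genes for each, and 42.8% of those of Hspd1 lie in Hspd1-ps3, which is also in the table. Hspd1 stood at 2.27, 102 and 740 normalised reads in control and at 6.92, 208 and 755 in LOY. Libraries near 0 and libraries near the maximum occurred in both groups. The log2 fold change was 1.11 (SE 1.58, 95% interval -2.27 to 4.50, limma adjusted p = 0.999), and single omissions moved it from 0.24 to 1.95.

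Hspe1 stood at 3.63, 62.6 and 269 normalised reads in control and at 30.7, 174 and 309 in LOY. Control 2, 7 and 12 lay below every LOY library, and control 8, at 269, near the top. The log2 fold change of 2.01 (SE 1.22, 95% interval -0.59 to 4.62, limma adjusted p = 0.997) has an interval that includes 0, and its size depended on the fit. DESeq2 gave 1.09 and edgeR 1.11, and single omissions moved the limma value from 1.41 without control 2 to 2.58 without control 8. Though the genes share a promoter region, their levels gave a pooled Pearson r over the 12 libraries near 0, with r = -0.051 (permutation p = 0.875, adjusted 0.875) and Spearman rho = 0.014 (permutation p = 0.9746). The pooled value covers unlike groups: within LOY r was 0.939 and within control -0.633, over 6 libraries each, and the difference was not tested. Without the 2 libraries farthest from the median of Hspd1, the pooled r was 0.22.

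**Figure D4:**
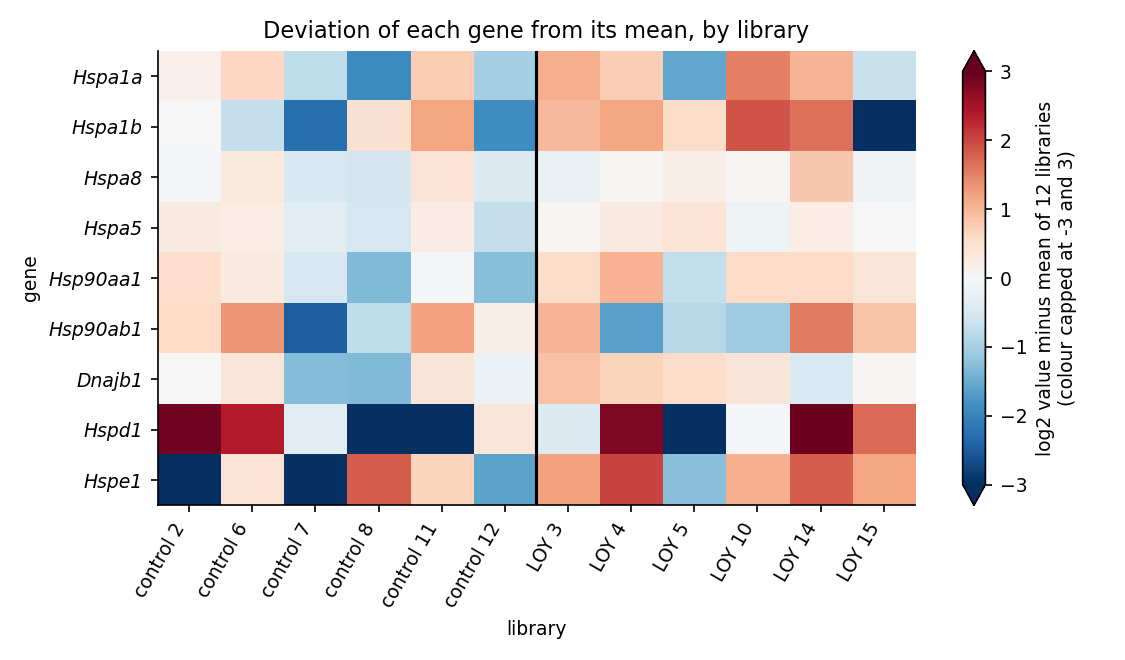
Deviation of each of the 9 tested chaperone genes (rows) from its mean over the 12 libraries (columns), in log2 units, with control and LOY libraries side by side. Control 7, 8 and 12 are low in most rows, and LOY 4 and LOY 14 are high in most rows.

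Ranked within each gene, a few libraries carried most of the extremes. Control 7, control 8 and control 12 each had 6 of the 9 tested members among their 3 lowest values. LOY 14 had 7 of 9 and LOY 4 had 5 of 9 among the 3 highest. The other control libraries had 0 or 1 member among the lowest 3. Control 8, 12 and 7 also had the 3 highest summed neutrophil markers of the controls, 613985, 424988 and 367937. LOY 4 and LOY 14, at 360998 and 324717, lay inside the LOY range of 204015 to 388485. The part of these markers in the ranks was not tested. LOY 5 together with control 8 had the lowest weights. Without control 8 and LOY 5, 0 members were called by limma, 8 of 9 had a positive fold change, and Hspe1 alone had an unadjusted p under 0.05. The log2 fold change of Hspe1 was then 3.035 (limma unadjusted p = 0.0294). Those of the others were 0.79 for Hspa1a, 1.255 for Hspa1b, 0.17 for Hspa8, 0.13 for Hspa5, 0.83 for Hsp90aa1, -0.03 for Hsp90ab1, 0.45 for Dnajb1 and 1.31 for Hspd1.

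The 36 pairs of tested members were correlated over the 12 libraries on log2(normalised reads + 1), and 34 of the coefficients were positive, with a median r of 0.362 and a range from -0.178 to 0.834. Within the groups the signs were more mixed: 5 of 36 coefficients were negative within control and 14 of 36 within LOY. The libraries share cell type, chemistry and scaling. Of the 36, 1 pair passed an adjusted permutation p of 0.05 and 5 had an unadjusted p under 0.05, and on deviations from the group means 0 passed.

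Hspa1a and Hsp90aa1, both inducible cytosolic chaperones, were the pair that passed. Their r was 0.834 (permutation p = 0.00088, adjusted p = 0.0317) and rho 0.832 (permutation p = 0.0014, adjusted p = 0.0504). Without control 8 and LOY 5, the libraries farthest from the median of Hspa1a, r was 0.714. Within control it was 0.871 and within LOY 0.808, and on deviations from the group means 0.823 (permutation adjusted p = 0.05004). With single libraries left out, r stayed between 0.768 and 0.885. Leaving out control 6, 7, 8 or 12 or LOY 3, 4 or 10 put the permutation adjusted p above 0.05, up to 0.180 without control 8. Other inducible pairs had lower r over the 12 libraries. Hspa1b had 0.353 with Hsp90aa1 and 0.371 with Dnajb1, and Dnajb1 had 0.548 with Hspa1a and 0.562 with Hsp90aa1. Within control, r was higher with constitutive members, at 0.953 for Hsp90aa1 with Hspa5 and 0.936 for Hspa1a with Hspa8.

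Hspa8 and Hspa5, the constitutive HSP70 genes of cytosol and ER, followed with r = 0.748 (permutation p = 0.00513, adjusted p = 0.0923) and rho = 0.699 (permutation p = 0.0145, adjusted p = 0.222). Without LOY 14, the highest library for Hspa8, r was 0.829 with a permutation adjusted p of 0.0421. Hspa1a and Hspa1b had r = 0.532 (permutation p = 0.0770, adjusted p = 0.275) and rho = 0.678 (permutation p = 0.0185). Without control 8 and LOY 5, r was 0.925. These 2 are also the libraries that stand apart in the ratio of the pair, so the higher r is a description of the other 10, in which the ratio still ran from 0.273 to 2.25.

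**Figure D5:**
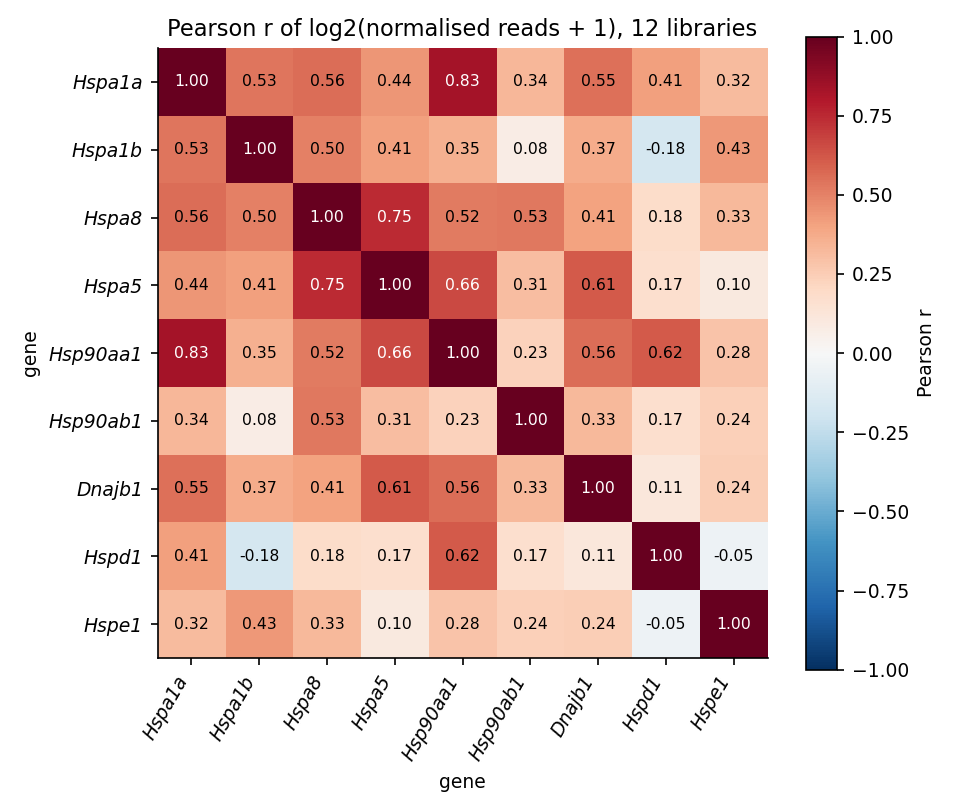
Pearson r of log2(normalised reads + 1) for each of the 36 pairs of the 9 tested chaperone genes over 12 libraries, genes on both axes. Most coefficients are positive, the highest is Hspa1a with Hsp90aa1 (0.834), and the lowest is Hspa1b with Hspd1 (-0.178).

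Other genes of the chaperone network were taken from lists by function, and none was called in any list. Of the heat shock factors and their binding protein, 2 of 4 were in the table. Hsf1, the main heat shock factor, stood at 129 ± 125 normalised reads in control and 390 ± 455 in LOY (SD, n = 6 each). The groups overlap, and LOY over control was 1.83 on the log2 scale (SE 1.54, limma adjusted p = 0.997). Hsbp1, a binding partner that restrains heat shock factor, had one of -0.29 (SE 0.41).

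Of 41 cytosolic co-chaperones, 40 were in the table and 30 tested, with 13 log2 fold changes above 0 and 17 below, a median of -0.19 and 1 unadjusted p under 0.05. That gene was Hspb1, the small heat shock protein HSP27, at 83.4 ± 93.1 normalised reads in control and 251 ± 149 in LOY (SD, n = 6 each). By limma, Hspb1 had a log2 fold change of 3.32 (SE 1.39, unadjusted p = 0.0318, adjusted p = 0.997). In 3 control libraries it lay below every LOY library. These were control 2, 8 and 11, at 0.725, 5.07 and 1.70 normalised reads, so the log2 value depends on libraries near the floor. The ratio of the means was 3.01. Dnaja1, an HSP40 like Dnajb1, was at 3784 ± 1087 in control and 2887 ± 975 in LOY, with a log2 fold change of -0.41 (SE 0.27). Ahsa1, the activator of the HSP90 ATPase, had -2.24 (SE 1.47), and Dnajc7, a co-chaperone that binds both HSP70 and HSP90, 0.75 (SE 0.51). The value of Ahsa1 also depends on low libraries, with LOY 4 at 1.16 and LOY 15 at 12.4 normalised reads.

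In the ER list of chaperones and unfolded protein response genes, 23 of 25 were tested, with 14 log2 fold changes above 0, 9 below and a median of 0.25. Hsp90b1, the HSP90 of the ER, stood at 715 ± 571 normalised reads in control and 1024 ± 563 in LOY, with a log2 fold change of 0.70 (SE 0.60). Xbp1, a transcription factor of the response, had -0.60 (SE 0.39), with 5 of 6 LOY libraries below every control library. Sel1l, part of the machinery that sends ER proteins to degradation, had 1.54 (SE 0.94), and Herpud1, of the same machinery, 1.45 (SE 1.38). The means of Herpud1 were 655 in control and 703 in LOY, with control 7 and 8 at 3.31 and 15.2 normalised reads. Of 15 mitochondrial chaperones and proteases, 7 were tested, 2 above 0 and 5 below, with a median of -0.42. Hspa9, the mitochondrial HSP70, stood at 206 ± 281 in control and 212 ± 203 in LOY, with a log2 fold change of 1.84 (SE 1.46). Its means were alike, and the log2 value depends on control 2, 6 and 7, at 7.98, 3.74 and 3.31 normalised reads. Spg7, Yme1l1 and Grpel1 had log2 fold changes of -2.13 (SE 1.69), -0.47 (SE 1.09) and 0.59 (SE 1.44). Their lowest libraries held 0, 5.26 and 1.66 normalised reads.

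Immediate early genes, which also respond to cell isolation, summed to 252254 to 591729 normalised reads in control and 342246 to 556711 in LOY. Of the 19, all were tested, 10 had a log2 fold change above 0, and the median was 0.06. The 4 of smallest p were Zfp36 with 0.36 (SE 0.23), Ier5 with -0.80 (SE 0.65), Jund with -1.13 (SE 0.92) and Klf2 with -0.89 (SE 0.55).

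Markers of heart cells were higher in LOY libraries by count, with none called. Cardiomyocyte markers summed to 5951 to 76379 normalised reads in LOY, and 15 of 15 had a positive log2 fold change (median 1.67). Endothelial markers summed to 1062 to 4097 in control and 2596 to 6477 in LOY (7 of 9 tested positive), and fibroblast markers to 2972 to 10540 and 5835 to 16383 (6 of 6 tested positive). Macrophage markers (2 of 9 tested positive) and B cell markers (1 of 7) did not share that direction, and neutrophil markers had 4 of 12 positive. B cell markers summed to 3263 to 12314 in control and 2996 to 8757 in LOY. The defining markers Ryr2, Tie1, Emcn, Pdgfra and Lum were at 0 in 6 or more libraries. The part of these cells in the chaperone values was not tested.

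The genes whose pattern was most like that of the Hspa1 sum over the 12 libraries were G6pc3 (Pearson r 0.918), Prmt1 (0.905), Tnfaip1 (0.903), Ddx39b (0.895) and Poc1b (0.868). For Hsp90aa1 they were Mir5107 (0.904), Stx5a (0.886), Gm28875 (0.878), Pafah1b2 (0.874) and Gm5844 (0.867). Most are sparsely read, with medians from 10.6 normalised reads for G6pc3 to 566 for Stx5a, and they are the highest of 6951 coefficients, so they are given as a description. Gm5844 shares 36.8% of the 50-base stretches of Hsp90aa1.

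In the authors' deposited table, the log2 fold changes of the 10 members ran from -0.016 for Hsp90ab1 to 1.99 for Hsph1, and the adjusted p-values from 0.769 for Hspa1b to 0.999. By that source, 9 of the 10 fold changes were above 0. These fold changes match those of DESeq2 on the recovered reads, so they are not a separate result.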

How the data were processed

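Cells were lysed after sorting, and cDNA was made with SMART-Seq v4 and libraries with Nextera XT, per the labels' protocols. Neither marks strand or counts molecules. The submitters' processing notes list the tools featureCounts (Subread 1.5.2), STAR 2.5.2b, Trimmomatic 0.36 and bcl2fastq 2.17, with GRCm38 (mm10). The sources used here do not name the tool behind the scaling and the deposited comparison.

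The authors deposited 1 table of 11911 genes with a signal per library (counts divided by a size factor), log2 fold changes, p-values and adjusted p-values, per the file headers. In each of the 12 libraries 100% of values above 0 were whole multiples of the worth of 1 read within 0.01, which gave the reads per library. Precision covers counting error only.

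Values were tested as log2(normalised reads + 1) with limma 3.58.1 (trend, robust) over genes at 10 or more in at least 6 of 12 libraries, with Benjamini-Hochberg adjustment at 0.05. DESeq2 1.42.0 and edgeR 4.0.16 (R 4.3.3) ran on the recovered reads as alternatives. The Hspa1a and Hspa1b sum and Hsp90aa1 had exact permutation tests, and correlations used 100000 permutations. The limma script was tested on simulated data. Per-kilobase levels and 50-base stretches used GENCODE M21.

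The text names every member, and of each list the 4 tested genes of smallest p, Hsf1, and the 5 genes of most similar pattern. Ly6g, Csf3r and genes at 0 among markers were named after their values were seen. The members and lists were chosen with earlier results of these data known.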

Additional observations from a re-analysis of the deposited data

Results flagged for a closer look

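In groups of 6 libraries, a library was marked when its gap to the nearest other, as a share of the group's range, exceeded Dixon's 95% critical value. Of 22 groups tested, 3 held such a library. Chance marks about 1 in 20 where values are normally distributed. The marks were made on normalised reads and not on the log2 values used in the tests, so that rate need not hold here. Hspa8 was at 10285 normalised reads in LOY 14, with the other LOY libraries at 5016 to 6666. Hsph1 was at 355 in control 12, with the other controls at 0 to 1.497. It was at 1060 in LOY 14, with the other LOY libraries at 0 to 198.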

How the results depend on the processing

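No paired analysis was possible because the groups share no replicate number. The members were called in 0 of 21 alternatives, and the log2 fold changes of the tested members other than Hsp90ab1 kept their sign in all of them. The smallest adjusted p of a member was 0.769 (Hspa1b, DESeq2). Hsp90ab1 had a positive value after quantile normalization (0.029) and without control 2, 6, 11 or 12 or LOY 4, 5 or 10 (range over single omissions -0.53 to 0.29). The count of all genes called was 2, and it was 0 with no filter, with a mean of at least 50, with edgeR and without control 8 and LOY 5, and 303 with DESeq2. Over single omissions it was 0 to 4, with 0 without control 7, 8 or 12 or LOY 3, 4, 5, 14 or 15. The causes were not tested. The Hspa1 sum had an exact permutation p under 0.05 only without LOY 15, its lowest library (1.37), in a range of 0.70 to 1.37. The count of correlated pairs was 1, and it was 0 after quantile normalization, on deviations from the group means and by Spearman's rho, and 0 to 2 over single omissions. It was 2 without LOY 5 or LOY 14. Omitting control 8 and LOY 5 was chosen after seeing the data, as was adding the copies of Hsp90aa1. In a simulated comparison of 6538 genes by limma, 93 of 100 genes changed 4-fold passed the filter and 12 were called. Of 100 changed 16-fold, 85 passed and 36 were called, with 2 false calls in all.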
